A study of Mus musculus with 2 samples.

Results

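The loci described here are the 1 kb bins of the mouse genome at which aligned reads piled up on the same positions in ChIP-seq of MTF2 and JARID2. ChIP-seq recovers the DNA bound by a protein with an antibody and sequences it. Of all reads that began at one position on one strand, 1 was kept, and the kept reads were counted in 1 kb bins after their 5' ends had been moved downstream by 70 bp in MTF2 and by 100 bp in JARID2. The fold of a bin is its number of kept reads divided by the mean of its chromosome, taken over bins up to the 99th percentile. A bin was selected on measured values: it had a fold of at least 3 in either library, and at least 3 lines in the deposited file for each kept read in either library. This rule found 311 bins among the 2382450 bins of chromosomes 1 to 19 that held a read. Folds and lines per kept read chose these bins, so they are given below as descriptions and no test was made on them.

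Each factor had 1 library, without replicates, input or control antibody among the samples, so no difference between MTF2 and JARID2 could be tested. Both libraries came from mouse embryonic stem (ES) cells of the strain 129SvJae x C57BL/6 at passages 10-15, grown in serum with ESGRO and taken off feeder cells for about 2 to 3 passages before harvest. The labels give no genotype change or treatment, and by the labels the groups differed in the antibody, against MTF2 or against Jarid2. The files also differed in read length, in the number of flow-cell tiles (95 in MTF2 and 120 in JARID2) and in the deposited score (0 to 10 in MTF2, 1000 in JARID2). Differences due to the antibody and those due to sequencing or read processing therefore cannot be told apart. The libraries were amplified by 15 PCR cycles. The MTF2 file listed 10986401 reads of 52 bp and the JARID2 file 14465269 reads of 36 bp, with expected counts of 3.39 and 4.25 kept reads per bin (medians over chromosomes). All intervals are 95% intervals of counting error, and lines that PCR copied from 1 molecule are not independent.

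MTF2, a Polycomb-like protein, and JARID2, a protein of the Jumonji family, are partners of PRC2, the complex that methylates histone H3 on lysine 27 and keeps developmental genes repressed in ES cells. Satellites and other multi-copy sequences are present in the genome in many more copies than a genome assembly holds. Reads from all copies can then be listed at the few places that represent them, in an input library as well as in a ChIP. The major satellite of mouse, a tandem repeat of the heterochromatin next to centromeres, has a unit of 234 bp. A genome of the files' build was not used here, so the bins are given by position, without genes, repeat classes or sequences. The working name of these bins, satellite-like and repeat loci, could be examined only through the arrangement of the reads.

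The 311 bins formed 239 loci when bins with at most 1 other bin between them were joined, and all 19 chromosomes held between 5 and 19 loci. Of these loci, 216 were 1 bin long, 18 had 2 bins, and 5 had 3 or more and held 59 bins together. A fold of at least 3 was reached by 149 of the 311 bins in MTF2 and by 308 in JARID2. Over all occupied bins, 1.07% reached that fold in MTF2 and 4.14% in JARID2, and the rule used these folds. The level of 3 lines per kept read was met in both libraries by 62 bins, in JARID2 alone by 194 and in MTF2 alone by 55. Among all bins with a read of the library, 0.0583% met that level in MTF2 and 0.0409% in JARID2. The 3 classes are described in turn.

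The pile-up bins made up 0.0131% of the occupied bins and held 13.5% of the MTF2 lines of chromosomes 1 to 19, which is 1429786 of 10572939 lines. In JARID2 they held 3.30%, or 463727 of 14051486 lines. Among kept reads their shares were 0.678% in MTF2 and 0.576% in JARID2, so the libraries differed far less once each position was counted once. A kept read in these bins stood for 24.6 lines on average in MTF2 and for 6.44 in JARID2. The lines removed as repeats numbered 2009255 in MTF2, and 68.3% of them lay in the 311 bins. The same share was 25.5% of 1538745 repeat lines in JARID2. Most of this came from the 62 bins piled up in both libraries, which alone held 67.5% of the MTF2 repeat lines and 18.9% of those of JARID2.

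The 62 bins piled up in both libraries had the highest MTF2 folds, while the highest JARID2 folds, of up to 423, were in bins piled up in JARID2 alone. Their median fold was 309 in MTF2 (interval 216 to 332), with a range of 3.32 to 457, and 194 in JARID2 (165 to 206), with a range of 4.50 to 368. Of the 62 bins, 36 adjoin each other in 1 block of chromosome 9 and carry these medians. The 26 bins outside it had median folds of 78.2 in MTF2 and 58.0 in JARID2, and over the 15 loci the medians were 55.5 and 46.3. The median lines per kept read of the 62 bins were 14.6 in MTF2 and 5.29 in JARID2. The MTF2 fold was above the JARID2 fold in 53 of these 62 bins, against 3 of the 194 bins of JARID2 alone. Among the 116297 bins of fold 3 or more below the pile-up level, it was above in 16.6%. By locus it was above in 9 of the 15. The classes were formed by piling in each library, so these counts are descriptions. The plot of MTF2 against JARID2 folds shows most of the 62 bins close together at its upper right and the others along the line of equal folds.

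**Figure D1:**
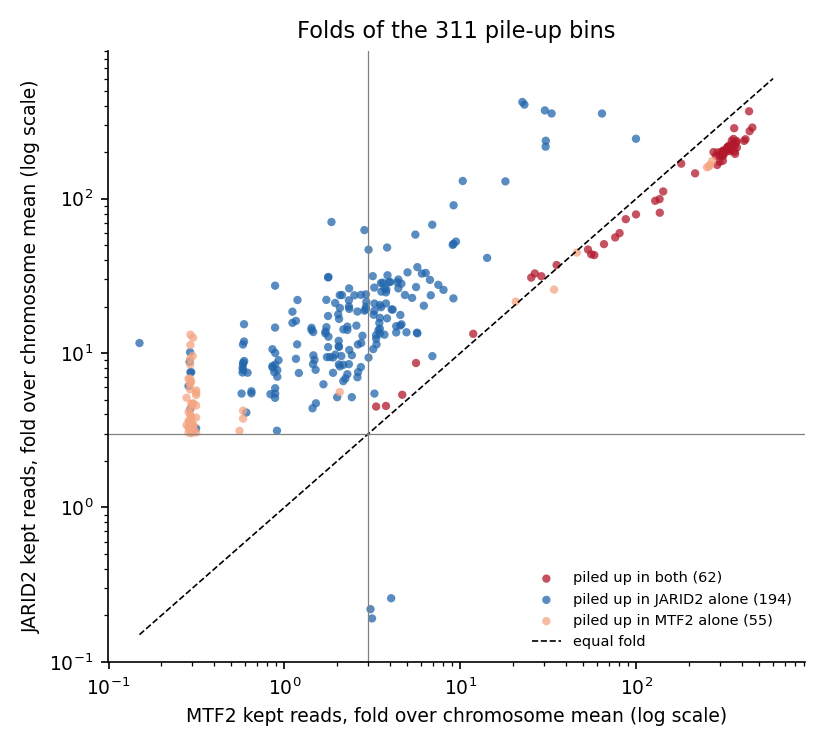
Fold of the 311 pile-up bins in MTF2 (x axis, log scale) and JARID2 (y axis, log scale), in kept reads over the chromosome's expected number, coloured by the library in which lines per kept read reached 3. Grey lines mark a fold of 3, and the 1 bin without an MTF2 read is drawn at the left edge, at 0.15. The dashed line marks equal folds. The bins piled up in both libraries reached 457-fold in MTF2, while those of JARID2 alone had a median of 2.42-fold in MTF2, and 3 of them lie below the 3-fold line of JARID2.

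The longest locus was chr9:2999001-3039000, a run of 40 bins at the first listed end of chromosome 9. It held 43219 kept reads on 551532 lines in MTF2 and 34022 kept reads on 155809 lines in JARID2. These gave 12.8 and 4.58 lines per kept read, and folds of 318 (315 to 322) and 198 (196 to 200.3). This locus alone held 5.22% of the MTF2 lines and 1.11% of the JARID2 lines of the chromosomes counted. In the 38 bins between its first and last bin, the MTF2 fold ran from 253 to 457 with a median of 332, and the JARID2 fold from 159.6 to 289 with a median of 207. A bin has 2000 positions counted on both strands, which caps its number of kept reads. In these 38 bins between 42.9% and 77.6% of them were occupied in MTF2 and between 34.3% and 62.0% in JARID2.

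The block ended abruptly within its last bin, which had folds of 136 in MTF2 and 81.1 in JARID2. Its first bin had folds of 5.6 and 8.62, since it held only reads that the shift had moved to lower coordinates than the first listed position, 3000001. Bin by bin, the libraries rose and fell together along the 38 inner bins, with a Pearson correlation of 0.899 for log2 folds and 0.952 for log2 lines per kept read. These bins adjoin each other, share their library and may share sequence, so the correlations are a description. The plot of folds along the block shows this parallel course.

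**Figure D2:**
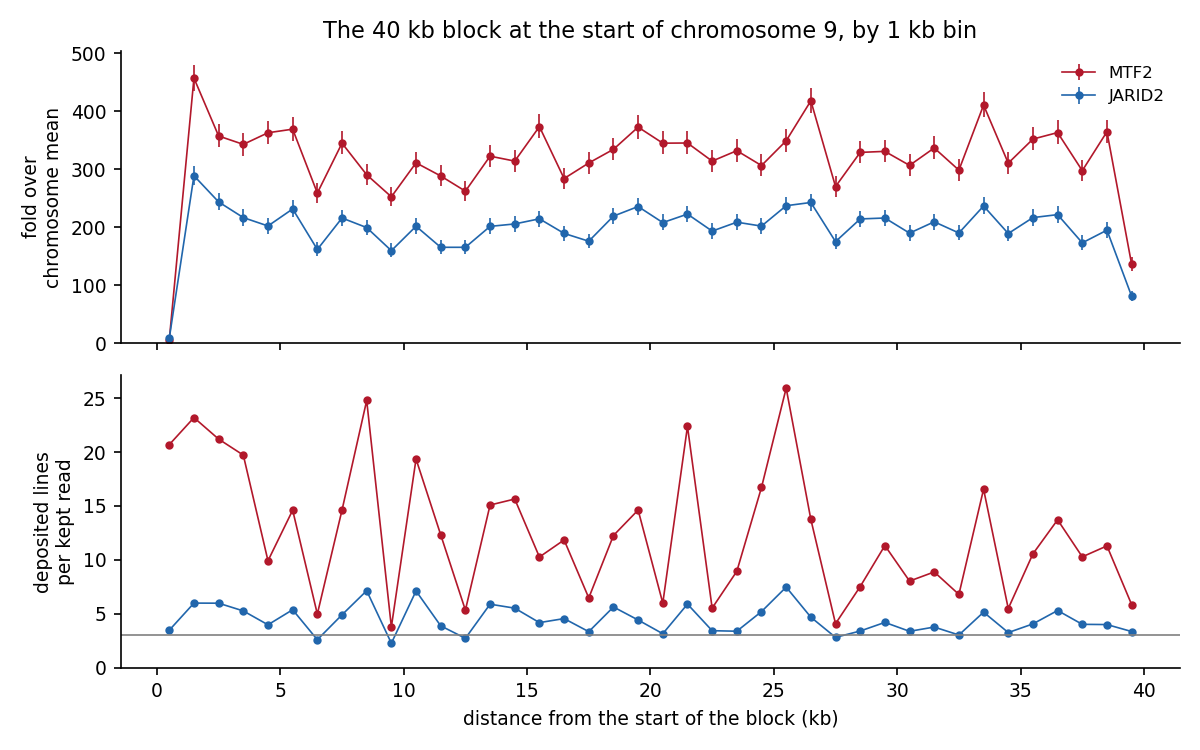
Fold (upper panel, y axis) and lines per kept read (lower panel, y axis, with a grey line at 3) in each 1 kb bin along the 40-bin block of chromosome 9 (x axis, kb from its start) for MTF2 and JARID2, with 95% Poisson intervals as error bars on the folds. MTF2 lay between 253 and 457 in the 38 inner bins and JARID2 between 159.6 and 289.

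Positions within the block were then compared with each other for a repeated spacing, through the correlation of log stack heights with themselves at distances of 100 to 1000 bp. A stack is the set of lines that share a strand and 5' end. Between 100 and 500 bp the correlation was highest at 468 bp in both libraries, at 0.0736 in MTF2 and 0.0899 in JARID2, and 468 is 2 times 234. JARID2 had local maxima at 234, 468, 702 and 935 bp. MTF2 had them at 468, 702 and 935 bp, but none at 234 bp, where its correlation was -0.0528. Other maxima lay off these multiples, at 898 bp in MTF2 (0.0801) and at 877 bp in JARID2 (0.0850), and each was higher than that of its library at 702 bp (0.0384 and 0.0809). These correlations are weak and are a description across positions of each library, and the measure was chosen after the data had been seen. The planned measure, which counted pairs of kept 5' ends at distances of 20 to 500 bp, had its maximum at the shortest distance in this block and showed no spacing. The plot of the correlation against distance shows the repeated maxima.

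**Figure D3:**
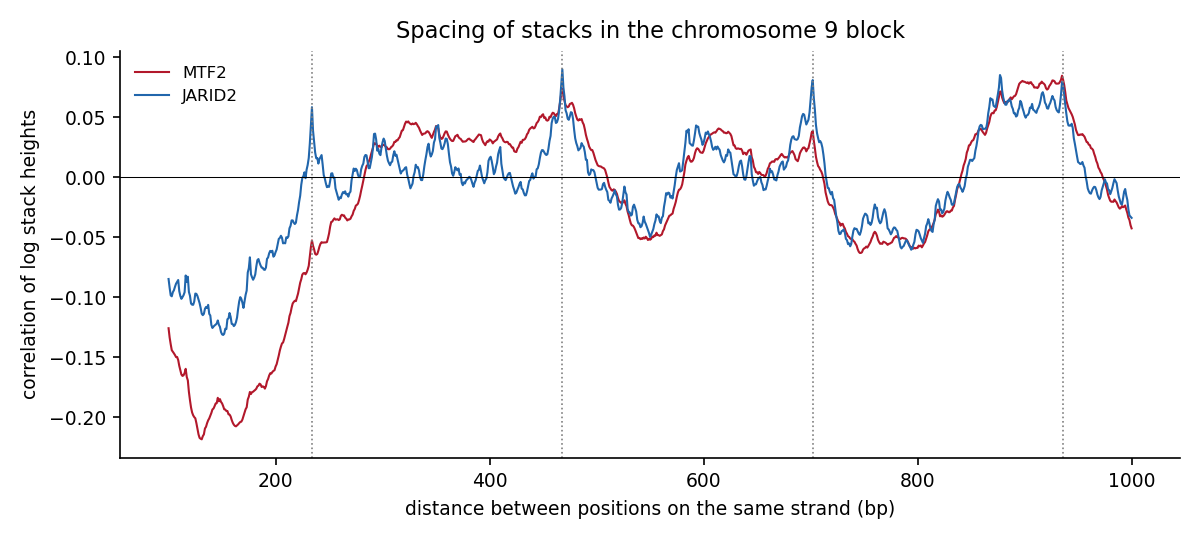
Correlation of log stack heights (y axis) between positions of the chromosome 9 block at each distance in bp (x axis), for MTF2 and JARID2, with dotted lines at 234, 468, 702 and 936 bp. Both libraries rose at 468 bp, and JARID2 also at 234 bp.

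The 4 other loci with at least 3 bins had their highest correlations at other distances. Multiples of 234 bp were tabulated for the chromosome 9 block alone. At chr5:2999001-3003000 the highest correlation between 100 and 500 bp lay at 418 bp in MTF2 and at 415 bp in JARID2. Both libraries also had a maximum at 564 bp there, of 0.160 in MTF2 and 0.164 in JARID2, which is higher than any in the chromosome 9 block. At chr2:98463001-98469000 the highest values lay at 308 and 397 bp, with further maxima at 809 and 810 bp. They lay at 496 and 381 bp at chr14:18208001-18211000, and at 433 and 394 bp at chr17:39451001-39457000. These loci span only a few kb, so a distance between a few strong stacks and a repeated unit cannot be told apart.

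The locus with the next largest number of lines was chr2:98463001-98469000, with 6 bins. It held 3944 kept reads on 423195 lines in MTF2 and 3982 kept reads on 103159 lines in JARID2. Its folds were 191 (185 to 197) and 156 (151 to 161), with bins of up to 438 and 368. A kept read stood for 107 lines in MTF2 and for 25.9 in JARID2. The libraries thus had nearly the same number of occupied positions here and differed in lines, with more in MTF2.

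The single bin chr14:39187001-39188000 had the highest piling of all loci. Its 617 kept reads stood for 283176 lines in MTF2, and its 628 kept reads for 36324 lines in JARID2. That is 459 and 57.8 lines per kept read, at folds of 180.3 (166 to 195) and 169 (156 to 182). By its share of the lines of each library on chromosomes 1 to 19, this bin was 10.4 times as high in MTF2 as in JARID2, while the ratio of the folds was near 1. In JARID2, 80% of the lines of its surroundings lay within 178 bp.

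Shorter runs of bins followed. The locus chr5:2999001-3003000, at the first listed end of chromosome 5, held 3387 kept reads on 57593 lines in MTF2 and 2783 on 14926 lines in JARID2, at folds of 250.1 and 158. The 3 bins of chr14:18208001-18211000 held 1641 kept reads on 20395 lines in MTF2 and 1316 on 6907 lines in JARID2, at folds of 159.8 and 118. Both loci had more kept reads and more lines in MTF2, as the block of chromosome 9 had.

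At the 2-bin locus chr9:35054001-35056000, MTF2 had 679 kept reads on 26728 lines and JARID2 had 663 on 7188, at folds of 100.1 and 77.3. At chr6:103614001-103616000, MTF2 had 375 kept reads on 32110 lines and JARID2 had 356 on 7288, at folds of 53.5 and 46.3. At chr12:3109001-3111000, MTF2 had 393 kept reads on 18109 lines and JARID2 had 373 on 4053, at folds of 59.4 and 48.8. In these 3 loci the kept reads were nearly as many in each library, and the lines were more in MTF2. The bin chr13:77902001-77903000 had the same pattern, with 192 kept reads on 8916 lines in MTF2 and 169 on 2326 lines in JARID2.

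The 6 remaining loci piled up in both libraries were single bins with fewer reads. At chr4:63984001-63985000 MTF2 had 121 kept reads on 729 lines and JARID2 163 on 988, at folds of 35.3 (29.3 to 42.2) and 37.2 (31.7 to 43.4). At chr9:24292001-24293000 MTF2 had 98 kept reads on 1188 lines and JARID2 135 on 746, at folds of 28.9 and 31.5. The intervals of the folds overlapped between the libraries at both. The bins starting at chr15:21601001, chr14:44734001, chr10:121166001 and chr7:90317001 held between 11 and 39 MTF2 kept reads and between 18 and 55 JARID2 kept reads, at folds of 3.32 to 11.8 and 4.50 to 13.3.

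Over the 15 loci of this class, the ratio of the MTF2 to the JARID2 fold had a median of 1.16 and a range of 0.738 to 1.61, and MTF2 was above in 9. By share of lines the median ratio was 4.70, with a range of 0.655 to 10.4, and MTF2 was above in 12. The size of the difference between the libraries therefore depended on whether repeat lines were kept. The number of stranded positions in a bin limits the fold and not the lines.

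**Figure D4:**
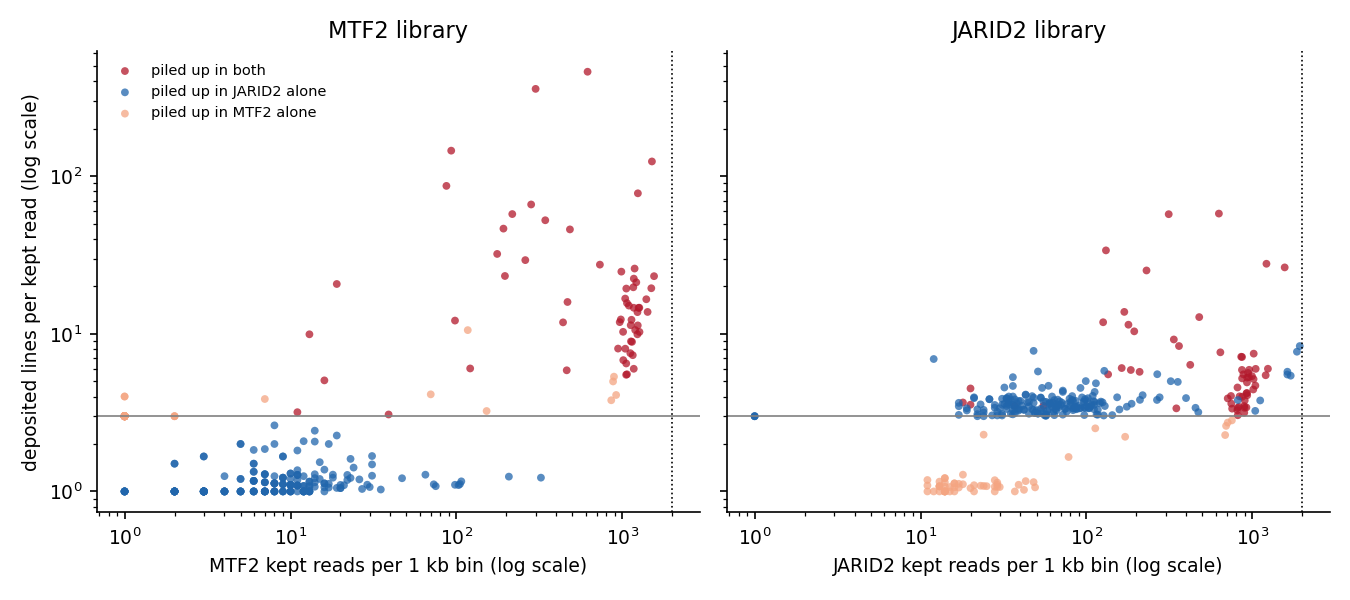
Lines per kept read (y axis, log scale) against kept reads per bin (x axis, log scale) for the 311 bins in each library, coloured by class. The grey line marks 3 lines per kept read, and the dotted line the 2000 stranded positions of a bin. MTF2 reached 459 lines per kept read and JARID2 57.8.

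The 194 bins piled up in JARID2 alone were mostly short isolated sites. Their median JARID2 fold was 14.5 (13.1 to 16.9), with 50% of the bins between 8.70 and 24.0 and a maximum of 423. The median of their lines per kept read was 3.53, close to the threshold, and the maximum 8.36. In MTF2 the same bins had a median fold of 2.42 (2.13 to 2.91) and 1.09 lines per kept read, and 80 of the 194 reached a fold of 3. JARID2 lines here were 0.869% of its library and MTF2 lines 0.0337%. The 6-bin locus chr17:39451001-39457000 alone held 62115 of these 122045 JARID2 lines and 1046 of the 3567 MTF2 lines. The 3 bins below a JARID2 fold of 3 belonged to this class and started at chr11:111677001, chr13:96487001 and chr17:84915001, with MTF2 folds of 3.15, 4.05 and 3.09. Each held 1 JARID2 kept read on 3 lines, so its JARID2 level rests on a single stack. By locus, the JARID2 fold was above the MTF2 fold in 171 of 174, with a median ratio of 6.61, and by share of lines the median ratio was 18.8. Piling in JARID2 alone defined these loci. Among all bins of fold 3 or more below the pile-up level, the MTF2 fold was the higher in 16.6%.

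The largest locus of this class was chr17:39451001-39457000, with 6 bins. JARID2 had 9848 kept reads on 62115 lines there, and MTF2 had 883 kept reads on 1046 lines. The folds were 360.0 (353 to 367) in JARID2 and 45.4 (42.5 to 48.5) in MTF2, and 1 bin reached 423 in JARID2. That bin had 1929 JARID2 kept reads of 2000 possible ones, so its fold was at the limit of the measure. The JARID2 lines per kept read were 6.31 and the MTF2 value was 1.18. By share of lines, JARID2 was 44.7 times as high as MTF2.

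Stack heights over single positions were compared between the libraries at the loci piled up in both. On the plus strand they correlated at 0.867 over the 6000 positions of the chromosome 2 locus, at 0.724 over the 4000 of the chromosome 5 locus, at 0.698 over the 3000 of the chromosome 14 locus and at 0.656 over the 40000 of the chromosome 9 block. On the minus strand the correlations were 0.812, 0.696, 0.694 and 0.611, in the same order. The block of chromosome 17, piled up in JARID2 alone, had -0.0183 on the plus strand and -0.0428 on the minus strand. These values cover 6000 positions with only 1046 MTF2 lines.

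Next in JARID2 fold were chr4:118046001-118047000 and chr18:90736001-90737000. The bin on chromosome 4 had 1040 kept reads on 3373 lines in JARID2 and 105 on 117 in MTF2, at folds of 237 (223 to 252) and 30.6 (25 to 37). The bin on chromosome 18 had 817 kept reads on 3103 lines in JARID2 and 103 on 113 in MTF2, at folds of 217 (203 to 233) and 30.6 (24.9 to 37.1). In both, MTF2 was raised without piling up. The locus chr16:57312001-57314000 had a bin of 130.2-fold in JARID2. The bin chr3:5843001-5844000 followed at 129-fold in JARID2 and 18.1-fold in MTF2, and chr5:146565001-146566000 at 90.6 and 9.16.

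The ratio between the libraries was far larger at some bins. At chr17:35839001-35840000 JARID2 had 322 kept reads on 1611 lines and MTF2 had 6 kept reads, at folds of 70.6 (63.1 to 78.8) and 1.85 (0.680 to 4.03), a ratio of 38.1. The MTF2 interval there included 1, so no MTF2 excess was detectable at this depth. The bin starting at chr2:144693001 had 43 kept reads in JARID2 and 1 in MTF2.

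The loci of JARID2 alone were narrow. Around each bin with at least 20 kept reads, the shortest stretch that held 80% of the JARID2 lines was measured in a window of 500 bp on each side. It had a median of 62 bp (60 to 67) and was at most 200 bp long in 167 of 185 bins (90.3%, interval 85.1 to 94.1). The other raised bins are the 116297 bins of fold 3 or more below the pile-up level. In the 50776 of them with at least 20 JARID2 kept reads, the median stretch was 612 bp and 0.534% were so narrow. In the bins piled up in both libraries the median was 637 bp, which the chromosome 9 block carries. In the 25 such bins outside that block it was 178 bp, and 14 of the 25 (56%, interval 34.9 to 75.6) were at most 200 bp long. The bins of the chromosome 17 block were not narrow, with stretches of 702 to 889 bp.

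The strands of these sites were also offset differently. In ChIP-seq, plus-strand reads lie upstream of a bound place and minus-strand reads downstream of it, and the strands are about a fragment length apart. The median minus-strand position was 34.5 bp downstream of the median plus-strand position in the JARID2 reads of the JARID2-alone bins (34 to 35). In 153 of 185 bins (82.7%, interval 76.5 to 87.9) the offset was within 5 bp of 35 bp, the read length minus 1. At that offset, plus-strand and minus-strand reads cover the same bases. The other bins of fold 3 or more had a median offset of 172.5 bp (171 to 174, 50776 bins), and 1.53% of them lay within 5 bp of 35 bp. Strand offset and width are not used by the rule, but the stacking of lines on the same positions is.

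**Figure D5:**
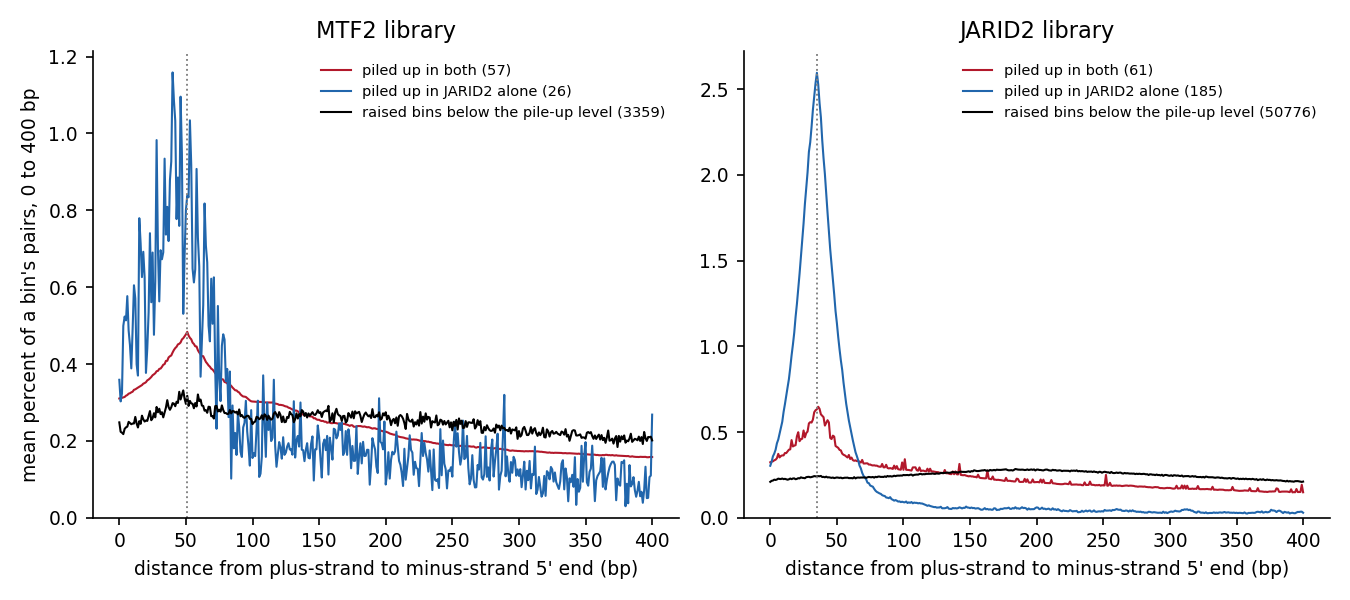
Distance between opposite-strand 5' ends (x axis, bp) and the mean percent of a bin's pairs at each distance (y axis) in MTF2 and JARID2, for the bins piled up in both libraries, those of JARID2 alone and the other raised bins. Dotted lines mark the read length minus 1, at 51 bp in MTF2 and 35 bp in JARID2. The JARID2-alone bins had 2.60% of JARID2 pairs at 35 bp, while in the other raised bins the most frequent distance was 184 bp, with 0.285% of pairs.

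The same distance appeared in the pairs of opposite-strand 5' ends. In JARID2 the most frequent distance was 35 bp in the JARID2-alone bins and 36 bp in the bins piled up in both libraries, against a shallow maximum at 184 bp in the other raised bins, with 0.285% of pairs there and 0.281% at 200 bp. In MTF2 it was 51 bp, its read length minus 1, in the bins piled up in both libraries. In the 26 JARID2-alone bins measured in MTF2 it was 40 bp, with 1.16% of pairs. Of these 26 bins, 3 had an MTF2 strand offset within 5 bp of 51 bp. In the other raised bins the most frequent MTF2 distance was 48 bp, so the contrast seen in JARID2 was much smaller in MTF2. The median strand offset in the bins piled up in both was 22.0 bp in MTF2 and 18.0 bp in JARID2, with 19.3% and 16.4% of bins within 5 bp of the read length minus 1. Outside the chromosome 9 block these shares were 45.5% in MTF2, or 10 of 22 bins (24.4 to 67.8), and 32% in JARID2, or 8 of 25 bins (14.9 to 53.5), with median offsets of 45.2 and 31 bp.

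Although MTF2 was not piled up in the JARID2-alone bins, its reads lay close to the JARID2 stacks. Of 5718 MTF2 kept reads within 1000 bp of the middle of the JARID2 stretch, 1838 (32.1%, interval 30.9 to 33.4) were within 100 bp of it. An even spread gives 10%. Windows of neighbouring bins overlap, so a read could be counted more than once, and the intervals treat the counts as independent. The share was 9.09% in the 50776 other raised bins with at least 20 JARID2 kept reads. Among the 271 other raised bins with a stretch of at most 200 bp, however, it was 49.2% (47.8 to 50.5). It was 41.7% (40.1 to 43.4) in the 167 JARID2-alone bins under the same limit, so reads were no closer to the stacks there than in narrow bins below the pile-up level. Bins with a JARID2 fold of 8.70 to 24.0 were also compared. Their median MTF2 fold was 2.33 (2.04 to 2.85) in 96 JARID2-alone bins and 0.591 (0.591 to 0.602) in 16033 other raised bins. A fold of 3 in MTF2 was reached by 34 of the 96 (35.4%) and by 11.8% of the others. The rule used these folds and the piling that separates the sets, so the values are descriptions. The sets were matched on JARID2 fold and not on the width of the stretch.

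The remaining class, of 55 bins with the level met in MTF2 alone, was mixed. In 47 of them MTF2 had only 1 or 2 kept reads, on 3 to 6 lines, and 44 had exactly 1. In these 47 bins JARID2 had 1.0 to 1.28 lines per kept read, with a median of 1.08, and a fold of 3.04 to 13.2, with a median of 4.0. Each thus joined 1 or 2 small stacks in MTF2 to a moderate JARID2 fold without piling, which goes against the name of a pile-up at satellite-like loci. Their median MTF2 kept-read count was below the expected number, at a median fold of 0.295 over the class. Counts of loci and medians over the 311 bins include them.

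The 8 other bins of that class had JARID2 lines per kept read of 1.65 to 2.82, close to the level. Of these, 4 belonged to the block of chromosome 9. At chr4:69864001-69865000 MTF2 had 117 kept reads on 1234 lines and JARID2 113 on 284, at folds of 34.1 (28.2 to 40.9) and 25.8 (21.2 to 31.0). At chr12:75723001-75724000 MTF2 had 152 kept reads on 492 lines and JARID2 171 on 380, at folds of 46.0 and 44.8. At chr16:10888001-10889000 the folds were 20.7 in MTF2 and 21.5 in JARID2. The fold intervals of the libraries overlapped at all 3, so these bins resembled the small loci piled up in both more than the single stacks. The last of the 8, at chr9:83355001, had 7 MTF2 kept reads on 27 lines.

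Position along the chromosome was not used by the rule. Within 1 Mb of the first read of their chromosome lay 48 of the 311 bins (15.4%, interval 11.6 to 19.9), against 1.09% of the other bins of fold 3 or more. The share was 66.1% of the bins piled up in both libraries and 1.55% of those of JARID2 alone. It rested on the chromosome 9 block, without which it was 2.95%. Besides that block these bins were 4 on chromosome 5, 2 on chromosome 12, 1 at chr8:3754001 and 1 at chr9:3258001. The bin chr5:2999001, of JARID2 alone, held 48 JARID2 kept reads, all on the minus strand. The shift had moved them there, since the first listed position of chromosome 5 was 3000016. Adjoining bins of 1 locus are not independent of each other.

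The last 1 Mb held 8 bins, all of them piled up in JARID2 alone. They were 4.12% of that class (1.80 to 7.96), against 1.01% of the other raised bins. Of these, 3 lay in the last bin with a read of their chromosome. The last read of chromosome 18 was listed at 90736837, in the 217-fold bin described above. The last read of chromosome 11 was listed at 121798632, in a bin of 52.7-fold, and that of chromosome 5 at 152003063, in a bin of 20.9-fold. In that chromosome 5 bin all 92 JARID2 kept reads lay on the plus strand, against 3 of 100 in the adjoining bin chr5:152002001. Both bins are among the 8, and a single narrow site divided by the shift cannot be told apart from separate sites.

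A few kb outside the loci piled up in both libraries or in JARID2 alone, the median fold was near or below 1. In the bins 1 to 5 kb beyond loci piled up in both libraries the median fold was 1.02 in MTF2 and 0.583 in JARID2, against 55.5 and 46.3 inside. Beyond the loci of JARID2 alone it was 0.885 and 0.810, against 2.38 and 14.6 inside. The adjoining bin was not part of this measure, and some sites reach into it: chr6:50976001, next to a bin of JARID2 alone, had a JARID2 fold of 2.86 with 4.18 lines per kept read.

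In bins with at least 20 kept reads, piling was mostly spread over many positions. The highest stack held a median of 1.77% of the lines of a bin in MTF2 and 1.88% in JARID2 in the class piled up in both, and 5.0% of JARID2 lines in the JARID2-alone class. The other raised bins had 5.13%. This share cannot be lower than 1 line divided by the number of lines in the bin. Over all bins of each set, the median number of JARID2 lines was 19 in the other raised bins. It was 216.5 in the JARID2-alone bins and 3430 in those piled up in both, so these shares do not compare spread between the sets. In the JARID2-alone bins 25% of occupied positions held a single JARID2 line, against 90.6% in the other raised bins, and this comparison uses what the rule selected. The highest stacks had 3603 lines in MTF2 and 658 in JARID2. The highest position was identical in the libraries in 0 of the 62 bins piled up in both, and within 50 bp on the same strand in 28.

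The read names gave the place of each read on the flow cell. In MTF2, 1.09% of line pairs from the same stack in the pile-up bins came from the same tile, where an even spread over the tiles gives 1.05%. In JARID2 the values were 0.853% and 0.833%. The same-tile share in MTF2 was 1.29% in the other raised bins and 1.43% in the remaining bins. In JARID2 it was 1.10% and 3.82%. Pairs were pooled over stacks, so the highest stacks supply most of them, and smaller stacks may differ.

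Each MTF2 line carried a deposited score from 0 to 10, whose meaning is not given in the sources used here, and every JARID2 line carried 1000. In the pile-up bins 22.2% of MTF2 lines (22.1 to 22.3) had a score of 0, against 36.4% in the other raised bins and 42.2% in the remaining bins. Among kept reads the share was 10.8% in the pile-up bins. Scores of 1 and 2 were held by 53.0% of lines there, against 34.5% in the other raised bins. The bins piled up in both libraries held 1407889 of the 1429786 lines and set these shares. In the JARID2-alone bins 31.5% of lines had a score of 0 and 31.0% a score of 1 or 2, so low nonzero scores were not more frequent there than in the other raised bins.

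The score differed among loci. A score of 0 was held by 27.2% of MTF2 lines at chr14:39187001-39188000, by 23.6% at the chromosome 2 locus, by 19.6% in the chromosome 9 block and by 17.3% at the chromosome 5 locus. Among the other loci piled up in both libraries with at least 100 MTF2 lines, this share ran from 0% of 129 lines at chr10:121166001 to 25.2% at chr13:77902001. It was 2.19% at chr9:24292001 and 5.62% at chr4:63984001. In the MTF2-alone bins it was 3.05% at chr12:75723001, 4.38% at chr4:69864001 and 8.30% at chr16:10888001. At chr18:90736001-90737000 it was 70.8%, of 113 lines.

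Over 90% of kept reads lay on 1 strand in 26 of the 311 bins (8.36%, interval 5.53 to 12.0), against 0.280% of the other raised bins, and 22 of them were of JARID2 alone. This share fell to 0.977% when 5' ends were not moved. Moving the strands apart divides a narrow site between neighbouring bins, so this value depends on the shift.

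The thresholds passed through a continuous range. Just inside the fold threshold were chr16:20517001 and chr16:36633001 at 3.04 and chr11:75356001 at 3.06, and just outside were chr5:135966001 at 2.96, chr7:44818001 at 2.93 and chr6:50976001 at 2.86. For lines per kept read, 50 bins stood at exactly 3, among them those starting at chr1:30883001, chr1:36260001 and chr1:92746001. Just outside were chr16:18446001 at 2.99, with a JARID2 fold of 48.6, chr13:42447001 at 2.98 and chr18:89165001 at 2.97. A further 1195 bins of fold 3 or more had between 2 and 3 lines per kept read.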

How the data were processed

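Aligned reads of 1 MTF2 and 1 JARID2 ChIP-seq library were taken from the deposited interval files, 1 line per read. The aligner is not given in the sources used here, nor is the build or the treatment of repeat reads and of reads that match several places. How multi-copy reads were placed can change which bins pile up. The deposited score (0 to 10 in MTF2, 1000 in JARID2) was used only as a description. Coordinates are counted from 1 here, while starts in the files were read as counted from 0. Reads were kept once per chromosome, strand and 5' end, which left 8563684 of 10572939 MTF2 lines and 12512741 of 14051486 JARID2 lines on chromosomes 1 to 19. Moving, binning and thresholds are given above. The gene, promoter and miRNA tables at hand were of GRCm38.p6 and were not used.

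Shares have exact Clopper-Pearson intervals, folds exact Poisson intervals and medians order-statistic intervals, at 95%. With 1 library per factor no test was made. The bins and the rule were chosen with earlier results of these data known. Loci were named by their number of bins, their highest folds, their highest lines per kept read (with at least 10 kept reads) and the highest and lowest fold ratios. The counting was tested on simulated data. The strand offset, the 80% stretch, the tile measure, MTF2 reads near that stretch the stack-height spacing and the shape values outside the chromosome 9 block were added after the data were seen. Python 3.11.15, numpy 2.4.6, pandas 2.3.3 and scipy 1.17.1 were used.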

Additional observations from a re-analysis of the deposited data

Results flagged for a closer look

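Chromosome X lies outside the rule, and 11 of its bins, of 155104 with a read, met both thresholds. The level of lines per kept read was met by both libraries at 2 of them, by JARID2 only at 8 and by MTF2 only at 1. The highest were X:165433001 and X:165556001, at JARID2 folds of 252 and 241 and MTF2 folds of 21 and 21.9. At X:138729001 MTF2 had 117 kept reads on 6300 lines and JARID2 141 on 2877, at folds of 52.3 and 67.1. No bin of chromosome Y met both thresholds, and the JARID2 file had no line there.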

How the results depend on the processing

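The 8 summary values were recomputed under 15 alternatives, 12 of them planned and 3 added after the data were seen (both thresholds in MTF2, both in JARID2, and without the largest locus). Of 119 values 77 stayed within their interval, or within 1.5 times for counts, and 42 moved. The medians below are MTF2 and JARID2 folds. At 2 lines per kept read there were 1506 bins in 1396 loci, with medians of 0.304 and 4.85, 4.32% in the first Mb and 2.59% on 1 strand. At 5 lines there were 75 bins in 22 loci, 34 of them piled up in both, with medians of 284 and 190.2, 57.3% in the first Mb and 22.3% of MTF2 lines at score 0. A fold of 5 gave a JARID2 median of 19.3. Thresholds in the same library, and at least 10 kept reads, each gave medians of 3.49 and 20.1. With 2 kb bins there were 203 bins, 38 piled up in both, medians of 2.18 and 10.1, and 3.45% on 1 strand. With 5' ends not moved 0.977% were on 1 strand. From all lines the JARID2 median was 51.1. With JARID2 thinned to the MTF2 number of lines there were 201 bins in 142 loci, 191 of them shared, a JARID2 median of 19.4 and 23.4% in the first Mb. Both thresholds in MTF2 gave 69 bins in 18 loci, medians of 298 and 189, 65.2% in the first Mb and 4.35% on 1 strand. Both in JARID2 gave medians of 3.34 and 19.6 and 22.4% at score 0. Without the largest locus 26 bins were piled up in both, the JARID2 median was 13.3, 23.9% of lines were at score 0 and 2.95% of bins in the first Mb. Bins moved by 500 bp, an expected number from all bins, and MTF2 lines above score 0 moved no value, and the last gives none for score 0. No paired analysis was possible because each factor had 1 library. Depth limits bins with few reads most: 44 bins rest on 1 MTF2 kept read.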
